A study of Mus musculus with 2 samples.

Results

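The genes described here encode the enzymes of glycolysis and the main carriers of glucose and lactate. They are 32 of the 49492 genes in the deposited count table, chosen by symbol from the known pathway, and all 32 were found in the table. The choice was made with earlier results of these data known. RNA was sequenced from colonies/organoids that mouse mammary basal cells formed in 3D culture, with 1 control library and 1 library from cells given recombinant mouse TNF-α, an inflammatory cytokine, at 10 ng/mL. Both libraries came from wild-type (WT) primary mammary gland cells of adult females, sorted as basal cells by their CD24 and CD29 surface levels and cultured for 10 days in matrix gel, with EGF and an insulin, transferrin and selenium supplement in the medium of both. Neither the mouse strain nor the number of animals behind each culture is stated for these samples. With 1 library per condition no difference has a replicate check, so no test between conditions was possible and every difference below is between 2 libraries.

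Glycolysis splits glucose into pyruvate in the cytosol. Hexokinase and phosphofructokinase spend ATP at its upper steps, and phosphoglycerate kinase and pyruvate kinase regain it at its lower steps. Lactate dehydrogenase converts pyruvate to lactate, which leaves the cell through monocarboxylate transporters, while the pyruvate dehydrogenase kinases restrain the entry of pyruvate into the mitochondrial citric acid cycle. Most steps can be carried out by several isoenzymes with their own genes, and growing or activated cells are known to raise this pathway through the transcription factors HIF and MYC. In the mammary gland, glucose taken up by epithelial cells also feeds lactose and fat synthesis during lactation.

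The libraries held 44462275 counts (control) and 53487087 counts (TNF-α). Levels are given as counts, as CPM (counts scaled to a common library size by TMM), and, where genes are compared with each other, as TPM, which also divides by summed exon length. Differences are log2 ratios of CPM (TNF-α to control, prior count of 2) over the 20771 genes that reached 10 counts in both libraries combined, with a 95% interval that covers counting error only. Reads copied by PCR and not marked by molecular identifiers do not count separate molecules, so these intervals are the narrowest that the counts allow. A count of 2 was held by 2172 genes of the control and 2350 with TNF-α, and a count of 1 by 618 and 645. How the ends of a read pair were counted is not given in the sources used here. Were both ends counted, the intervals would be too narrow, and those of the members were also computed with counts halved. Basal markers summed to 12643 CPM in the control and 11814 CPM with TNF-α, and all 12, Krt5, Krt14 and Trp63 among them, were detected. Of the 12, 6 were lower with TNF-α, and this sum too hides unequal sizes. Log2 ratios were -1.20 for Lgr5, -1.19 for Oxtr and -0.52 for Myh11, against -0.08 for Krt14, 0.16 for Krt5 and 0.44 for Procr. All 11 luminal markers reached 10 counts and summed to 4456 and 3564 CPM, so the cultures of sorted basal cells also held luminal transcripts. Of the 11, 10 were lower with TNF-α, and the sum hides unequal sizes, with log2 ratios of -1.54 for Pgr, -1.48 for Esr1, -1.15 for Prlr, -0.97 for Foxa1, -0.95 for Kit and -0.77 for Gata3, against -0.10 for the abundant Krt8 and 0.29 for Epcam. Fibroblast markers (6 of 6) summed to 499 and 486 CPM and skeletal muscle markers (6 of 6) to 93.5 and 83.9 CPM. The fibroblast sum hides log2 ratios from -0.66 for Col3a1 to 1.39 for Dcn, and 2 of the 6 were lower. Leukocyte (9 of 12), erythroid (7 of 7), adipocyte (2 of 6) and endothelial markers (5 of 6) summed to 27.7 and 25.9, 22.98 and 19.1, 7.56 and 2.96, and 7.43 and 6.78 CPM. The part of these cell types in the results was not tested. Cd3e and Plin1 had 0 counts in both libraries. In bulk samples, fewer cells of a type and less RNA per cell cannot be told apart.

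All 32 genes passed the minimum of 10 counts, and 29 of them had at least 200 over the pair of libraries. Slc16a3, Pgk1, Pfkl, Tpi1 and Eno1 lay past 2-fold on the higher side in the TNF-α library, and 0 members lay past it on the lower side. These 5 genes are 15.6% of the 32 members, beside 8.56% of all genes compared that lay more than 2-fold higher and 6.62% more than 2-fold lower. Among genes with at least 200 counts the shares were 17.2% of the 29 members and 4.01% of all, with 2.87% of all more than 2-fold lower. At 1.5-fold, 10 members were higher and 1, Pdk2, was lower, beside 15.5% and 13.7% of all genes compared, or 9.13% and 7.48% of those with at least 200 counts. The median log2 ratio of the members was 0.28, and that of all genes compared was 0.0038. The counting interval lay wholly above 0 for 19 members, wholly below 0 for 5 (Hk1, Pfkm, Pfkfb2, Ldhb and Pdk2) and held 0 for 8. With counts halved in both libraries, the interval of Bpgm held 0 as well. Of all genes compared, 28.9% had an interval wholly above 0 and 27.8% wholly below 0, or 34.3% and 33.9% of those with at least 200 counts, so the count of members below 0 did not exceed the background. In all, 21 members (65.6%) were higher with TNF-α, beside 50.6% of all genes compared.

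**Figure D1:**
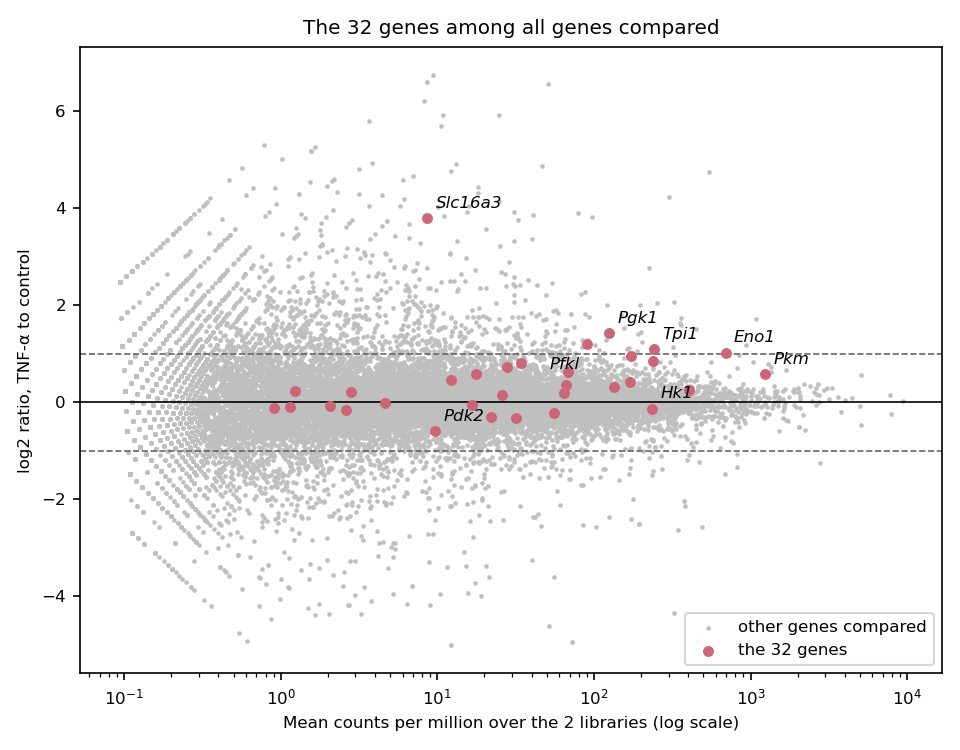
Log2 ratio of TNF-α to control against mean CPM over the 2 libraries (log scale), with 1 point per gene compared, the 32 members in red, and dashed lines at 2-fold. Slc16a3, at 3.80, stands well above the other members, whose ratios run from -0.60 (Pdk2) to 1.43 (Pgk1), and Pkm and Eno1 are the members with the highest mean level.

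The promoters of the members were searched because the members differed between the libraries to unequal degrees and the core of the hypoxia response element, ACGTG or GCGTG, is the classic element of HIF at glycolytic genes. RefSeq windows of GRCm38.p6, from 250 bases before to 50 bases after each start site, were found for 31 of the 32 members (50 windows), and Slc2a3 had none. Searched on both strands, ACGTG or GCGTG stood in 36 of the 50 windows (72%), beside 43.8% of all 32851 windows and 61.5% of the windows of genes with at least 200 counts. By gene, 26 of the 31 members (83.9%) held a core in some window, beside 67.9% of genes with at least 200 counts. These by-gene shares rest on unequal numbers of windows per gene, with 50 windows for 31 members against 12353 windows for 9610 genes. ACGTG alone stood in 42% of the members' windows, 19.6% of all windows and 24.9% of the windows of genes with at least 200 counts. CACGTG, the E box, which holds ACGTG on both strands, stood in 12%, 7.15% and 9.71% of these. The NF-κB consensus stood in 1 member window, 1 of those of Pdk2 (2%), in 4.51% of all windows and in 5.27% of those of genes with at least 200 counts. A match to 5 letters is frequent and describes the sequence only. The following stretches were chosen to show the cores of members across the range of ratios, with each core in capitals on whichever strand it was read, written 5′ to 3′ in the direction of the gene. Those of Pfkl, Gapdh and Ldha lie in introns of the deposited gene models, before a RefSeq start site that lies inside the gene. That of Slc16a3 is kept short because the sequence around it overlaps an exon, and the others lie upstream of the gene. First come 6 members that were higher with TNF-α.
Slc16a3 (chr11:120949034-120949063, + strand): gcggtgACGTGcgcgggggACGTGccgcgc
Pgk1 (chrX:106186932-106186991, + strand): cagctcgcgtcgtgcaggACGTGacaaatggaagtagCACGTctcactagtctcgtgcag
Pfkl (chr10:78009875-78009934, - strand): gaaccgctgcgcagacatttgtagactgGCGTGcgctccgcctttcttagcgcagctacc
Gapdh (chr6:125165791-125165850, - strand): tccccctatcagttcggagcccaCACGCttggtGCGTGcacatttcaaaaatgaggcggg
Ldha (chr7:46845733-46845792, + strand): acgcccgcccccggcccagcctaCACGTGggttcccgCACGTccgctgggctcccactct
Hk2 (chr6:82774475-82774534, - strand): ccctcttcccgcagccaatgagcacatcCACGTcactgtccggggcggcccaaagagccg
The next 3 members were lower with TNF-α and hold cores as well.
Ldhb (chr6:142508052-142508111, - strand): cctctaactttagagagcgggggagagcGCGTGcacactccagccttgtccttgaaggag
Pfkm (chr15:98092426-98092485, + strand): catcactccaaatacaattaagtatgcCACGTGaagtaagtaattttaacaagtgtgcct
Pdk2 (chr11:95041465-95041524, - strand): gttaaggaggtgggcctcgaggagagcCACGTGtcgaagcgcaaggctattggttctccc

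Cores thus stood in members on both sides of no change. Of the 5 members more than 2-fold higher, 4 (80%) had a core in some window, and Tpi1 had none in its window. The share was 83.9% of the 31 members and 67.9% of genes with at least 200 counts. ACGTG alone stood in 2 of the 5 (40%), beside 54.8% of the members and 29.1% of genes with at least 200 counts. The stretches of Slc16a3 and Pgk1, with a pair of ACGTG each, run from -33 to -4 and from -168 to -109 relative to the start site. Of the windows of Ldha, 1 held 7 cores, the most of any member when each CACGTG counts as 2 cores, 1 per strand. That window held 2 CACGTG, while a window of Hk1 held 5 cores and 0 CACGTG.

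Glucose enters most cells through the transporter GLUT1, encoded by Slc2a1 (chromosome 4, 119108711 to 119137983 on GRCm38). Slc2a1 had 2593 counts in the control and 3990 with TNF-α (log2 ratio 0.36, 95% interval 0.29 to 0.43). GLUT3, encoded by Slc2a3 and typical of neurons, had 42 and 46 counts, with an interval from -0.76 to 0.51, so that a difference was not detectable at this depth. In both libraries Slc2a1 gave over 99% of the TPM of the pair, at 99.2% and 99.4%. Hexokinase traps glucose as its phosphate. Hk1 (chromosome 10, 62268855 to 62379908), the housekeeping hexokinase, had 11014 and 12009 counts (log2 ratio -0.13, 95% interval -0.17 to -0.10). Hk2 (chromosome 6, 82725025 to 82774454), the inducible isoenzyme, had 932 and 1840 counts (log2 ratio 0.72, 95% interval 0.61 to 0.84). The 2 hexokinases thus lay on opposite sides of no change, except that Hk1 stood at 0.0081 after a correction on transcript GC content and length chosen after seeing the data, and their summed counts differed little, with a log2 ratio of -0.05 (95% interval -0.08 to -0.01). Gpi1, whose product turns glucose phosphate into fructose phosphate, had 6517 and 10399 counts (log2 ratio 0.41, 95% interval 0.37 to 0.46).

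Phosphofructokinase is the committed and most regulated step, and its subunits are named for liver, muscle and platelet. The liver-type gene Pfkl (chromosome 10, 77986947 to 78010083) had 2433 counts in the control and 6683 with TNF-α (log2 ratio 1.20, 95% interval 1.13 to 1.27). The platelet-type gene Pfkp had 5380 and 7990 counts (log2 ratio 0.31, 95% interval 0.26 to 0.36). The muscle-type gene Pfkm had 1590 and 1514 counts (log2 ratio -0.33, 95% interval -0.43 to -0.23). Per length, the 3 subunit genes stood almost level in the control at 35.1, 34.05 and 36.3 TPM for Pfkl, Pfkm and Pfkp, and stood at 77.9, 26.2 and 43.6 TPM with TNF-α. The PFKFB enzymes make and remove a fructose bisphosphate that activates phosphofructokinase. Pfkfb3, the form with the strongest kinase activity, had 457 and 752 counts (log2 ratio 0.46, 95% interval 0.29 to 0.63). Pfkfb2, typical of heart, had 1092 and 1049 counts (log2 ratio -0.32, 95% interval -0.44 to -0.19). Pfkfb4 (117 and 162 counts) and the liver and muscle form Pfkfb1 (53 and 59 counts) had intervals that held 0. The family as a whole differed by less than counting error, with a summed log2 ratio of -0.03 (95% interval -0.12 to 0.07).

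Aldolase splits the sugar bisphosphate, and triose phosphate isomerase interconverts the products. Aldoa (chromosome 7, 126795234 to 126809108), the main aldolase outside liver and brain, had 16390 and 23288 counts (log2 ratio 0.25, 95% interval 0.22 to 0.28). Aldoc, the brain form, had 1107 and 2326 counts (log2 ratio 0.81, 95% interval 0.71 to 0.92). The brain form therefore differed more than the main form, from a far lower level per length (21.5 and 36.5 TPM, against 276 and 317 TPM for Aldoa). Tpi1 (chromosome 6, 124810586 to 124814296) had 6874 and 17517 counts (log2 ratio 1.09, 95% interval 1.05 to 1.13).

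The next enzymes recover energy from the triose phosphates. Gapdh (chromosome 6, 125161715 to 125166467), the dehydrogenase of this step and the gene the study used to normalise its qPCR, had 5205 and 12065 counts. Its log2 ratio of 0.95 (95% interval 0.91 to 1.0002) was the nearest to the 2-fold line from below, its interval reached that line, and 9.12% of all genes compared had a higher ratio. Pgk1 (chromosome X, 106187100 to 106203699), whose product makes ATP, had 3010 and 9695 counts (log2 ratio 1.43, 95% interval 1.37 to 1.49). Bpgm, which diverts an intermediate to the red cell regulator of haemoglobin, had 1092 and 1454 counts (log2 ratio 0.15, 95% interval 0.04 to 0.27). With halved counts the interval of Bpgm, from -0.0093 to 0.32, held 0. All 7 erythroid markers reached 10 counts, their summed log2 ratio was -0.27 (95% interval -0.39 to -0.14), and their part in the Bpgm value was not tested. Pgam1, the general phosphoglycerate mutase, had 2413 and 4432 counts (log2 ratio 0.62, 95% interval 0.55 to 0.69). The muscle form Pgam2 had 95 and 108 counts, and its interval from -0.49 to 0.34 held 0.

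Enolase and pyruvate kinase complete the route to pyruvate. Eno1 (chromosome 4, 150236721 to 150248879) had 20377 counts in the control and 49537 with TNF-α (log2 ratio 1.02, 95% interval 0.998 to 1.05), which made it the member nearest to the 2-fold line from above, with an interval that held the line. The neuronal form Eno2 (50 and 71 counts) and the muscle form Eno3 (208 and 246 counts) had intervals that held 0. All 6 skeletal muscle markers reached 10 counts, with a summed log2 ratio of -0.16 (95% interval -0.22 to -0.09), and their part in the values of Eno3, Pgam2 and Pfkm was not tested. Pkm (chromosome 9, 59656368 to 59679375) had 44622 and 79368 counts (log2 ratio 0.57, 95% interval 0.55 to 0.59). It was the highest member per length in both libraries, at 565 and 813 TPM. The counts are per gene, so the splice forms of Pkm are not separated.

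**Figure D2:**
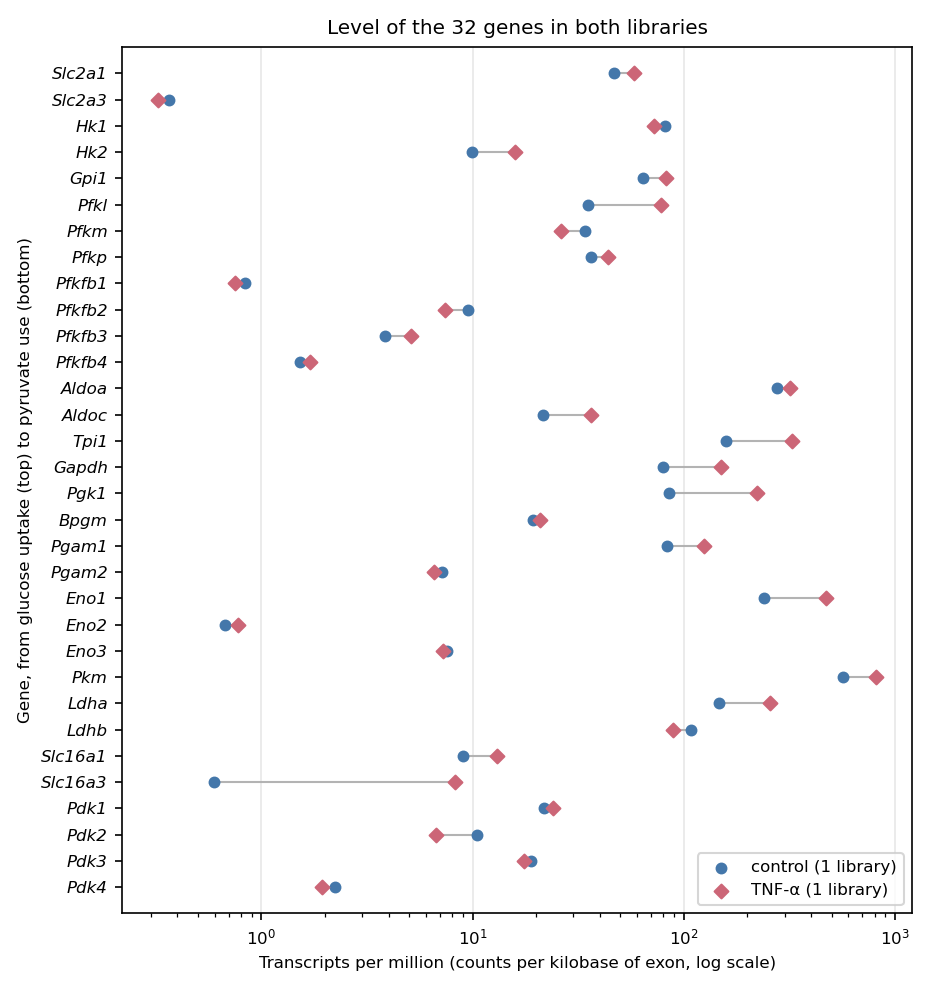
TPM (log scale) of each member in the control library (circle) and the TNF-α library (diamond), ordered from glucose uptake to pyruvate use. Pkm was highest and Slc2a3 lowest in both libraries, and Slc16a3 shows the widest gap, from 0.60 to 8.29 TPM.

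At the end of the pathway the differences again diverged between isoenzymes. Ldha (chromosome 7, 46841475 to 46855627), the form that favours lactate production, had 7650 and 16442 counts (log2 ratio 0.84, 95% interval 0.80 to 0.88). Ldhb, the heart form that favours lactate use, had 2672 and 2721 counts (log2 ratio -0.23, 95% interval -0.31 to -0.16). Slc16a3 (chromosome 11, 120948480 to 120960868) encodes MCT4, the transporter typical of cells that export lactate. It had 50 counts in the control and 861 with TNF-α (log2 ratio 3.80, 95% interval 3.43 to 4.29), or 13.9-fold, and its ratio stood at percentile 99.7 of all genes compared. Slc16a1, which encodes the more widely expressed MCT1, had 631 and 1125 counts (log2 ratio 0.57, 95% interval 0.43 to 0.72). Per length MCT4 nonetheless stayed below MCT1, at 8.29 against 13.02 TPM with TNF-α.

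None of the pyruvate dehydrogenase kinases lay past 1.5-fold higher. Pdk1, a known HIF target, had 2662 and 3648 counts (log2 ratio 0.19, 95% interval 0.12 to 0.27). Pdk2 (chromosome 11, 95026258 to 95041354), the most widely expressed form, had 523 and 412 counts (log2 ratio -0.60, 95% interval -0.79 to -0.41), the lowest of the 32 members. Pdk3 (761 and 877 counts) and the starvation-induced Pdk4 (124 and 132 counts) had intervals that held 0, from -0.20 to 0.09 and from -0.53 to 0.20. Their summed counts gave a log2 ratio of 0.06 (95% interval -0.0029 to 0.12).

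**Figure D3:**
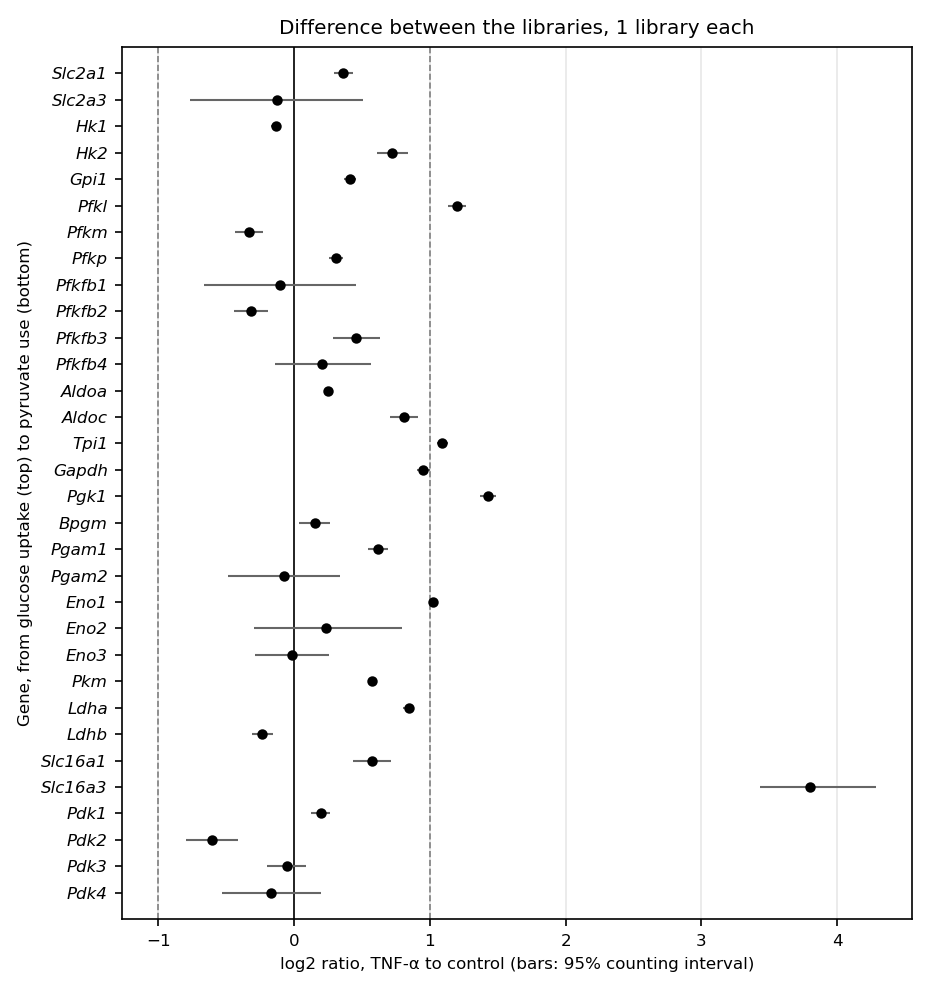
Log2 ratio of TNF-α to control for each member, ordered from glucose uptake to pyruvate use, with bars for the 95% counting interval and dashed lines at 2-fold. Slc16a3, Pgk1, Pfkl, Tpi1 and Eno1 lie beyond the right dashed line, and the widest bars belong to members with few counts such as Slc2a3 (42 and 46 counts).

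The ratio of 2 isoenzymes within a library does not depend on how the libraries are scaled. The count of Slc16a3 per count of Slc16a1 was 0.079 in the control and 0.765 with TNF-α, a 9.65-fold difference (exact conditional 95% interval 7.12 to 13.3). The Pfkl to Pfkm ratio went from 1.53 to 4.41, 2.88-fold (95% interval 2.65 to 3.14). The Ldha to Ldhb ratio went from 2.86 to 6.04, 2.11-fold (95% interval 1.99 to 2.24). These 3 pairs had the widest separations of the 9 pairs compared. Each pair was written with the member of higher log2 ratio first. Other pairs within these families, such as Pfkp to Pfkm, were not compared. No pair was taken from the enolase, phosphoglycerate mutase or glucose transporter families. Hk2 to Hk1 differed 1.81-fold (95% interval 1.67 to 1.97), Pfkl to Pfkp 1.85-fold (1.74 to 1.96), Pdk1 to Pdk2 1.74-fold (1.51 to 2.003), Pfkfb3 to Pfkfb2 1.71-fold (1.48 to 1.98) and Aldoc to Aldoa 1.48-fold (1.37 to 1.59). Pdk1 to Pdk3 differed least, 1.19-fold (1.06 to 1.33). In terms of TPM, Hk2 made up 10.8% of hexokinase in the control and 17.97% with TNF-α, Pfkl 33.3% and 52.7% of phosphofructokinase, Ldha 57.6% and 74.1% of lactate dehydrogenase, and Slc16a3 6.19% and 38.9% of the 2 monocarboxylate transporters. Hk1, Aldoa and Slc16a1 remained the larger part of their families in both libraries.

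**Figure D4:**
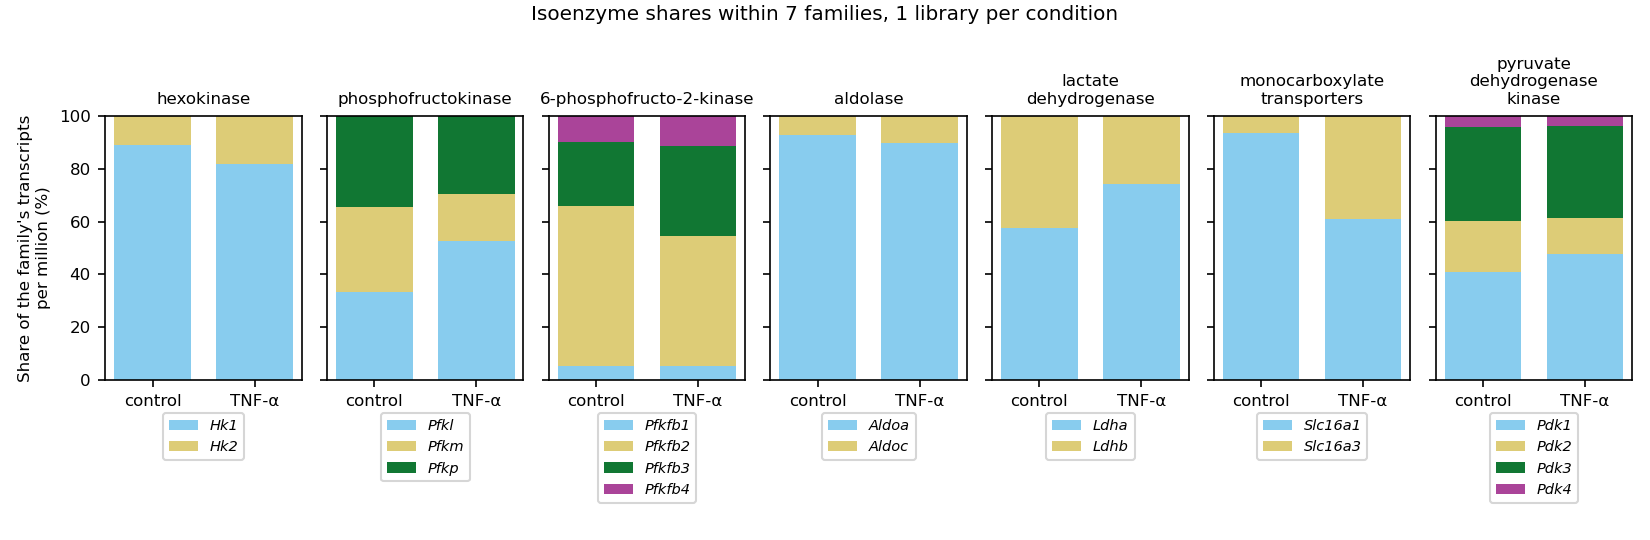
Share of each isoenzyme in its family's summed TPM (%), with 1 bar per library in 7 families. The part of Slc16a3 is 6.19% in the control and 38.9% with TNF-α, that of Ldha 57.6% and 74.1%, and that of Pfkl 33.3% and 52.7%.

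As a sum, the 32 members held 148736 counts in the control, 0.335% of the library (95% Wilson interval 0.333% to 0.336%), and 272818 with TNF-α, 0.510% (95% Wilson interval 0.508% to 0.512%). The log2 ratio of the summed counts was 0.62 (95% interval 0.61 to 0.62). Pkm and Eno1 gave 53.9% of the difference of 1775 CPM between the summed levels. Without them the log2 ratio of the sum was 0.52 (95% interval 0.51 to 0.53). The enzymes from hexokinase to triose phosphate isomerase had a summed log2 ratio of 0.42 (95% interval 0.40 to 0.43), and those from glyceraldehyde phosphate dehydrogenase to pyruvate kinase 0.77 (95% interval 0.76 to 0.79). By step, the summed ratio ran from -0.05 for hexokinase to 1.43 for phosphoglycerate kinase.

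Genes of adjoining pathways, on lists chosen from textbook knowledge with earlier results of these data known, had medians nearer to 0, from -0.24 to 0.24. Among genes with at least 200 counts the list medians ran from -0.25 to 0.32, beside 0.36 for the members. The highest, 0.32, was that of the other monocarboxylate transporters and their chaperones. Among 20 citric acid cycle genes the median log2 ratio was -0.05, none was past 2-fold, and the named extremes were Idh1 at 0.67 (3673 and 6985 counts) and Ogdh at -0.65 (5161 and 3930 counts). The 10 genes for pyruvate entry to the mitochondrion had a median of 0.013 with none past 2-fold, from -0.37 for Pdpr, a phosphatase regulator, to 0.37 for the pyruvate carrier gene Mpc1. Of 11 pentose phosphate genes compared, Tktl1 was more than 2-fold lower (21 and 10 counts), and the median was -0.10. Prps2 (-0.34) and H6pd (0.28) were the lowest and highest with at least 200 counts. In the 8 genes of gluconeogenesis and opposing enzymes compared, the median was -0.11, and the pyruvate carboxylase gene Pcx had 1024 and 677 counts (log2 ratio -0.85, 95% interval -0.999 to -0.72), with the glucose phosphate carrier Slc37a4 highest at 0.50.

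Pygl, the liver glycogen phosphorylase that releases glucose from glycogen, had 196 and 754 counts (log2 ratio 1.67, 95% interval 1.46 to 1.92), and Phka1, a subunit of the kinase that activates phosphorylase, had 572 and 314 counts (log2 ratio -1.12, 95% interval -1.33 to -0.92), within 19 glycogen genes with a median of 0.0053. The sodium-coupled glucose transporter Slc5a1 had 214 and 76 counts (log2 ratio -1.72, 95% interval -2.15 to -1.37). Of the other glucose and fructose transporters, 2 of 11 were past 2-fold higher, Slc2a6 with 0 and 32 counts and Slc2a5 with 2 and 20 counts, and 2 were past 2-fold lower, Slc5a1 and Slc2a2 (26 and 10 counts). The highest of that list with at least 200 counts, Slc2a12, had a log2 ratio of 0.29 with an interval that held 0. Among 15 other monocarboxylate transporter genes and chaperones, 3 were more than 2-fold lower on few counts (Slc16a5, Slc16a12 and Slc16a14, with 8, 14 and 69 counts in the control and 2, 0 and 6 with TNF-α). Slc16a7, a monocarboxylate transporter gene, was the lowest there with at least 200 counts, at -0.62. Bsg, the chaperone that brings MCT1 and MCT4 to the membrane, chosen after its values were seen, had 19857 and 29530 counts (log2 ratio 0.31, 95% interval 0.29 to 0.34).

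Of 9 genes compared on a list of other glycolytic isoenzymes and related enzymes, none was past 2-fold. The 3 with at least 200 counts ran from -0.48 for the related enzyme gene Ldhd to 0.17 for another, Minpp1. In the hexosamine and serine branches the median of 10 genes was 0.24, from Gnpnat1 at -0.44 to Gfpt2, an entry enzyme of the hexosamine route, at 0.84 (396 and 848 counts). The 8 shuttle genes had a median of -0.15, from Gpd1 at -0.72 to Slc25a13 at 0.51. Among 23 regulators of the pathway, 22 of them with at least 200 counts, the median was -0.20. Of the 23, 13 had an interval below 0 and 6 above 0. The background was 27.8% and 28.9% of all genes compared, or 33.9% and 34.3% of those with at least 200 counts. Of the regulators, 1 was past 2-fold higher. That gene, Egln3, encodes an oxygen-sensing hydroxylase that is itself a HIF target and had 272 and 1683 counts (log2 ratio 2.36, 95% interval 2.18 to 2.56), while Mycn was lowest at -0.93. Hif1a, chosen after its values were seen, had 15581 and 9920 counts (log2 ratio -0.91, 95% interval -0.95 to -0.87). The transcript amount of Hif1a does not give the amount of its protein, which is set largely by degradation. The part of HIF in the values of the members was not tested. Myc, also chosen afterwards, had 582 and 1039 counts (log2 ratio 0.57, 95% interval 0.43 to 0.73).

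**Figure D5:**
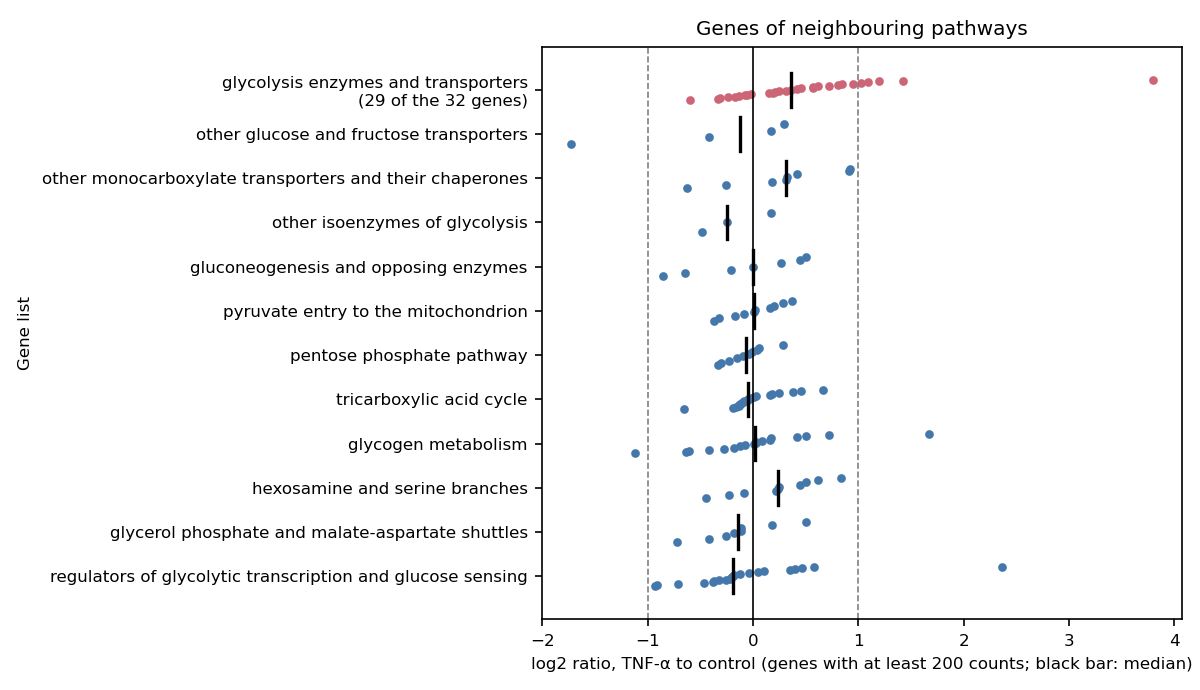
Log2 ratio of TNF-α to control for genes with at least 200 counts in the members (red, 29 genes) and in 11 lists of adjoining pathways (blue), with a black bar at each median and dashed lines at 2-fold. The members' median among these 29 genes is 0.36, and the citric acid cycle list is centred at -0.05. The lists with the highest medians are the other monocarboxylate transporters and chaperones (0.32) and the hexosamine and serine branches (0.24).

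Several members have near-identical copies elsewhere in the genome, and reads can be split between them. Gapdh had 74 such copies in the table (at least 95% identity over at least 200 bases and 50% of the copy's exon length), which summed to 556 counts in the control and 1303 with TNF-α, or 10.7% and 10.8% of the counts of Gapdh itself. Copies of Pgam1 held 6.42% and 9.68%, of Eno1 3.88% and 5.66% and of Pgk1 2.13% and 4.04% of the member's counts. With the copies added to their members, an alternative chosen after seeing the data, the log2 ratio of Eno1 became 1.05 and the 5 genes past 2-fold remained 5. The values of Pfkfb2, Pkm, Gpi1 and Pfkp are uncertain in another way, since their exons share 1262 bases with Gm29427, 767 with RP23-320D23.6, 741 with Gm26762 and 372 with Pitrm1, the last 2 on the opposite strand, and whether counting used the strand is not stated.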

How the data were processed

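RNA-seq libraries of 1 control and 1 TNF-α culture were made by the authors with a SMARTER mRNA kit and sequenced on an Illumina instrument. The authors deposited 1 table of raw counts per gene, not normalized, with exon coordinates and the summed exon length of each gene, a non-count column used for TPM. Builds named in the submitters' processing notes were GRCm38 and mm10. The aligner, counting tool, annotation and read filters are not given in the sources used here. Of the 32 members, 29 had the chromosome, start and end of GENCODE M21.

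Library sizes were scaled by TMM (edgeR 4.0.16, R 4.3.3), genes that reached 10 counts in both libraries combined were kept, and log2 ratios were taken with a prior count of 2. Without replicates no model could be fitted, so a gene was called by size (more than 2-fold), and Clopper-Pearson intervals of the share of counts gave intervals for counting error. Totals of 44462275 and 53487087 make 10 counts worth 0.224 and 0.187 CPM. The calculation was tested on simulated data. Named genes were all members, and in each adjoining list the highest and lowest with at least 200 counts and every gene past 2-fold with as many. A gene that this rule names is not reported here. Genes past 2-fold on fewer counts, Bsg, Hif1a and Myc were named after their values were seen. Alternatives of scaling, filter, prior count and fold were computed. Copies were found with BLAST+ 2.17.0. Scripts ran under Python 3.11.15 with pandas 2.3.3 and numpy 2.4.6, intervals came from scipy 1.17.1 and lowess fits from statsmodels 0.14.6, and plots were drawn with matplotlib 3.10.9. DESeq2 1.42.0 gave alternative size factors. The members and lists were chosen with earlier results of these data known.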

Additional observations from a re-analysis of the deposited data

How the results depend on the processing

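No paired analysis was possible because there was 1 control and 1 TNF-α library, so leaving out a replicate was not possible either. The 5 members past 2-fold higher and 0 past 2-fold lower were also counted with library totals as the scale, with upper quartile or DESeq2 factors, without a filter, with at least 1 CPM in a library, prior counts of 0.5 and 5, a lowess correction on abundance, halved counts, a counting interval beyond no change, and, chosen after seeing the data, a correction on transcript GC content and length (the planned one on a genome was not run, as no genome was given) and the addition of near-identical copies. A fold of 1.5 gave 10 higher and 1 lower, and a fold of 3 gave 1 higher, Slc16a3. The median of 0.28 lay between 0.27 and 0.35. The log2 ratio of the summed counts, 0.62, was 0.63 with copies added. The correction on GC content and length moved 6 members outside their counting interval, and Hk1 went from -0.13 to 0.0081, on the other side of no change, and the cause was not tested. With counts in place of TPM, the share of Hk2 was 7.80% and 13.3% in control and TNF-α, that of Pfkl 25.9% and 41.3%, that of Ldha 74.1% and 85.8%, and that of Slc16a3 with TNF-α 43.4%, because exon length enters TPM only. At 42 to 124 control counts, members such as Slc2a3, Pfkfb1, Eno2 and Pdk4 could not show small differences at this depth.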
